A study of Mus musculus with 12 samples.

Results

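Osteopontin and bone sialoprotein are secreted, acidic glycoproteins of bone matrix, encoded in the mouse by Spp1 (ENSMUSG00000029304) and Ibsp (ENSMUSG00000029306). These 2 genes, out of 35214 with values, were chosen because they are neighbors of 1 family whose RNA moved in opposite directions when FGF2 was added to cells without inhibitor. Both had enough reads to pass the filter on low counts, which kept 12542 genes. The values that chose them are those of the DMSO and DMSO+FGF2 libraries, so every comparison with either of those groups is given for Spp1 and Ibsp as a description without a p-value. Only the comparison of FGF2 with control medium under the inhibitor uses other libraries, and it alone was tested for them.

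The cells were Ocy454, a mouse osteocyte-like line that is grown at a permissive temperature and matures at body temperature, cultured in serum-containing medium on plastic. After 5 days of differentiation all cultures received either 200 nM BGJ398, which blocks the kinases of the FGF receptors, or its vehicle DMSO for 1 h. FGF2 at 2 ng/mL or control medium followed for 48 h, and polyadenylated RNA was sequenced from cells lysed on day 7. The groups of 3 libraries each are named DMSO (vehicle, no added FGF2), DMSO+FGF2, BGJ398 (inhibitor, no added FGF2) and BGJ398+FGF2. The labels give 1 cell line and triplicates, without saying whether these were separate cultures, so p-values reflect how far libraries spread, and part of that spread may be technical.

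Depth was 18951710 to 27716975 reads per library, and all pairs of replicates differed by more than counting noise. Of the 6 osteocyte markers, Mepe and Sost had 0 reads in all libraries and only Pdpn, the early osteocyte membrane protein podoplanin, averaged at least 10 reads, whereas all 7 osteoblast markers did. The late osteocyte markers were thus absent or near 0 in a line labelled osteocyte-like. Replicate 1 of BGJ398, replicate 2 of DMSO+FGF2 and replicate 2 of BGJ398+FGF2 deviated from their group means in the same direction across genes, with scores of 10.7, 9.46 and 17.8 on the leading axis of these deviations, against −9.46 to 2.21 for the other 9 libraries. Member values are therefore also given without those 3 libraries.

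Osteopontin and bone sialoprotein belong to the SIBLING family (small integrin-binding ligand N-linked glycoproteins), whose genes lie in a cluster and share an arginine-glycine-aspartate sequence that integrins bind. Both proteins bind hydroxyapatite. Osteopontin is made by many cell types, is phosphorylated on many serines and restrains crystal growth, whereas bone sialoprotein is largely restricted to mineralizing tissues and nucleates hydroxyapatite. In the RefSeq gene order on mouse chromosome 5 the genes follow one another as Sparcl1, Dspp, Dmp1, Ibsp, Mepe, Spp1 and Pkd2, so that 1 gene, Mepe, separates the pair.

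The proximal promoters of the pair are shown because the genes lie close together in this cluster and differed in sign. Each is the 250 bases upstream of a start annotated by RefSeq in build GRCm38.p6, on the plus strand, at chr5:104434861-104435110 for the first Spp1 start and chr5:104299037-104299286 for Ibsp. Capitals mark matches, on either strand, to the letters of 6 short motifs named in the next paragraph.
Spp1: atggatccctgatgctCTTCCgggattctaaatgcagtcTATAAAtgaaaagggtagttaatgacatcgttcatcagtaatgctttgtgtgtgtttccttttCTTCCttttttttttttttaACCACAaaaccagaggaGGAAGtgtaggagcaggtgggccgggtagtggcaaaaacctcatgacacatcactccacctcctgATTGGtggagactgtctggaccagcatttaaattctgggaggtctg
Ibsp: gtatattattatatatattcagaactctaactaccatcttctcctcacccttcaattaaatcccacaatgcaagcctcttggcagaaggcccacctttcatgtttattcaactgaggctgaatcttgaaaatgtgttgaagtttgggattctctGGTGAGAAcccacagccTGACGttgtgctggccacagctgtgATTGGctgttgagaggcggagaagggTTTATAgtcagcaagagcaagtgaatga

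Both promoters carried an inverted CCAAT box (ATTGG), 46 to 42 bases before the start in Spp1 and 54 to 50 bases before it in Ibsp, a pentamer found in 33.8% of 32536 promoter windows of the same length. Both also held TATAAA, at 28 to 23 bases before the Ibsp start, on the opposite strand as TTTATA, and much farther out in Spp1, at 211 to 206 bases (12.3% of promoters). Only these exact letters were searched, so near matches, such as TTTAAA close to the Spp1 start, are not marked. The Ibsp promoter alone of the pair held GGTGAGAA, 96 to 89 bases before the start. These are the letters of an element through which FGF2 acts on the rat Ibsp promoter in reporter assays, and 1.08% of promoters hold them. The match gives no direction of effect, and its part in the lower Ibsp level with FGF2 was not tested. The Ibsp window also held TGACG, the core letters of the cyclic AMP response element, 79 to 75 bases before the start (17.9% of promoters). The Spp1 promoter alone of the pair held the Runx core ACCACA, 128 to 123 bases before the start (13.96%), and 3 copies of the ETS core GGAAG, the outer 2 on the opposite strand as CTTCC (64.1% of promoters hold at least 1 copy). The AP-1 letters TGANTCA were in neither window and in 6.73% of all promoters. The motifs were picked with these sequences in view, and a match of letters is not a measured binding site. The main GENCODE transcript of Spp1 starts 7 bases downstream of the RefSeq start used here, and that of Ibsp 116 bases upstream of it, so that all matches named in the Ibsp window lie within the GENCODE transcript.

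Spp1 was an abundant transcript in all 4 groups. Values are read counts scaled to a fixed library total by the trimmed mean of M-values (CPM), each given for replicates 1, 2 and 3 in turn. In DMSO the 3 libraries held 402, 361 and 368 CPM of Spp1, a mean of 377 ± 21.8 (SD, n = 3). With FGF2 they held 943, 1056 and 870 CPM, a mean of 957 ± 94.0 (SD, n = 3). All 3 DMSO+FGF2 libraries lay far above all other libraries. In BGJ398 the values were 312, 299 and 309 CPM, a mean of 307 ± 7.21 (SD, n = 3), and in BGJ398+FGF2 they were 285, 355 and 309 CPM, a mean of 316 ± 35.3 (SD, n = 3). The inhibitor groups overlapped each other and lay below DMSO, although the gap was narrow, from 355 CPM in the highest BGJ398+FGF2 library to 361 in the lowest DMSO library. Each of these values rests on 5932 to 24790 reads.

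Ibsp was close to the detection limit. Its reads numbered 23, 22 and 27 in DMSO, 41, 38 and 26 in BGJ398 and 34, 23 and 44 in BGJ398+FGF2. In DMSO+FGF2 they numbered 0, 1 and 0. The group with FGF2 and no inhibitor thus held 1 read in 70675369, against 72 reads in 72566881 for DMSO. In CPM the means were 1.01 ± 0.187 in DMSO, 0.0142 ± 0.0246 in DMSO+FGF2, 1.72 ± 0.386 in BGJ398 and 1.62 ± 0.429 in BGJ398+FGF2 (SD, n = 3 each). The DMSO+FGF2 libraries lay below all others, the 3 DMSO libraries lay between them and the inhibitor groups, and the inhibitor groups overlapped each other. In bulk RNA, fewer cells with the transcript and less transcript per cell cannot be told apart.

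**Figure D1:**
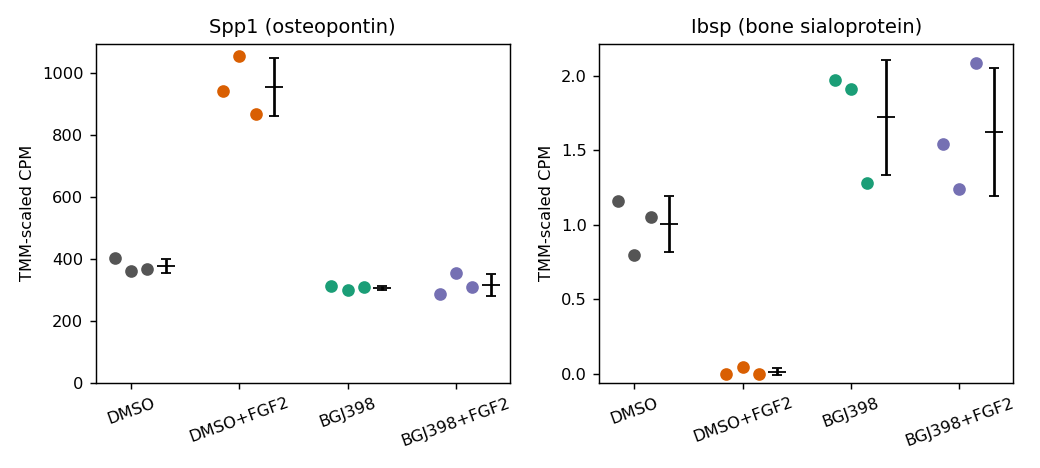
Levels of Spp1 (left) and Ibsp (right) in CPM on linear axes, with 1 point per library and a bar at the mean of each group of 3. The Spp1 points of DMSO+FGF2 lie at 870 to 1056 CPM, above all other libraries, while the Ibsp points of the same group lie at 0 to 0.0426 CPM, below all others.

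Per length, the pair differed in level by more than 2 orders of magnitude in every library. In TPM, the abundance per unit of transcript length scaled to a fixed library total, Spp1 averaged 591 in DMSO, 1425 in DMSO+FGF2, 469 in BGJ398 and 471 in BGJ398+FGF2. Among all genes ranked by TPM it stood at 210 to 236 in DMSO and at 104 to 111 in DMSO+FGF2. In the inhibitor groups its ranks were 294 to 297 without and 281 to 313 with FGF2. Ibsp ranked at 11271 to 12230 in the 9 libraries outside DMSO+FGF2. The TPM ratio of Spp1 to Ibsp was 600 to 796 in DMSO, 273 to 421 in BGJ398 and 260 to 501 in BGJ398+FGF2. In DMSO+FGF2 replicate 2, the only library of its group with an Ibsp read, the ratio was 42780. The ratio was thus higher in every DMSO library than in every inhibitor library. Across the 12 libraries the log2 CPM of the pair had a Pearson correlation of −0.975, a description in which the points share 4 groups and the same depths. The DMSO and DMSO+FGF2 libraries that chose the pair for opposite changes enter it, so a negative value was largely set by that choice.

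The fitted difference between DMSO+FGF2 and DMSO was 1.34 ± 0.08 for Spp1 on the log2 scale (SE), which is a 2.54-fold higher level with FGF2. Without the 3 libraries that deviated together it was 1.27 ± 0.05. For Ibsp the read totals gave a ratio of DMSO to DMSO+FGF2 of 70.1 per unit depth, with an exact 95% interval of 12.2 to 2808 that covers counting error only. Its fitted log2 difference was −5.66 ± 0.65 (SE), or −7.50 ± 0.98 without the 3 libraries. The value for Ibsp depends on the small count that the fit adds, because 2 of 3 libraries held no read. Neither gene's libraries overlapped between these groups, which was so for 37.6% of all tested genes (19.2% higher and 18.4% lower with FGF2). Since the pair was chosen on this contrast, nothing more is read from it.

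Under BGJ398 the addition of FGF2 left no detectable difference in either gene. For Spp1 the log2 difference between BGJ398+FGF2 and BGJ398 was 0.044 ± 0.084 (SE), with a 95% interval of −0.14 to 0.22 and adjusted p = 1 by edgeR's quasi-likelihood test with Benjamini-Hochberg adjustment. It became −0.047 without replicate 2 of BGJ398+FGF2 and −0.037 without the 3 libraries that deviated together. For Ibsp the log2 difference was −0.082 ± 0.32 (SE), with a 95% interval of −0.77 to 0.60 and adjusted p = 1 in the same edgeR test. It turned to 0.029 without replicate 1 of BGJ398, to 0.072 without replicate 2 of BGJ398+FGF2 and to 0.18 without the 3 libraries. The totals of 105 and 101 Ibsp reads gave a count ratio of BGJ398 to BGJ398+FGF2 of 1.06, with an exact 95% interval of 0.795 to 1.40 for counting error only. The libraries of these groups overlapped for both genes, whereas they did not overlap for 6.31% of the tested genes (3.44% higher and 2.88% lower with FGF2). No gene of the 12542 was called here (0%), where 325 genes (2.59%) had an unadjusted p below 0.05, DESeq2 called 5 genes and limma-voom 0.

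BGJ398 was also compared with DMSO at each level of FGF2, and both contrasts share libraries with the one that chose the pair. Without added FGF2, Spp1 was lower with the inhibitor by a log2 difference of −0.30 ± 0.08 (SE), and Ibsp was higher by 0.78 ± 0.33 (SE). Without the 3 libraries these were −0.31 ± 0.05 and 0.67 ± 0.36. The Ibsp read totals of 105 and 72 gave a count ratio of BGJ398 to DMSO of 1.74, with an exact 95% interval of 1.28 to 2.38 for counting error only. The 95% interval of the fitted log2 difference, which includes the spread of libraries, was 0.078 to 1.485. The libraries did not overlap for either gene, which held for 17.2% of all tested genes (9.11% higher and 8.08% lower with BGJ398). This contrast and that of FGF2 in DMSO share the DMSO libraries, and side by side Spp1 stood at −0.30 with BGJ398 alone and 1.34 with FGF2 alone, and Ibsp at 0.78 and −5.66. In the presence of FGF2, Spp1 was 3.02-fold lower with BGJ398, at a log2 difference of −1.60 ± 0.09 (SE), or −1.61 ± 0.06 without the 3 libraries. For Ibsp the count ratio of BGJ398+FGF2 to DMSO+FGF2 was 115.5, around a total of 1 read in the latter. Its exact 95% interval, for counting error only, was 20.3 to 4606. The fitted log2 difference of Ibsp was 6.36 ± 0.62 (8.35 ± 0.92 without the 3 libraries). Neither gene's libraries overlapped here, as for 34.8% of all tested genes (17.3% higher and 17.5% lower). The FGF2 difference under BGJ398 minus that in DMSO was −1.30 ± 0.12 for Spp1 and 5.57 ± 0.77 for Ibsp (log2, SE), or −1.30 ± 0.08 and 7.68 ± 1.13 without the 3 libraries.

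**Figure D2:**
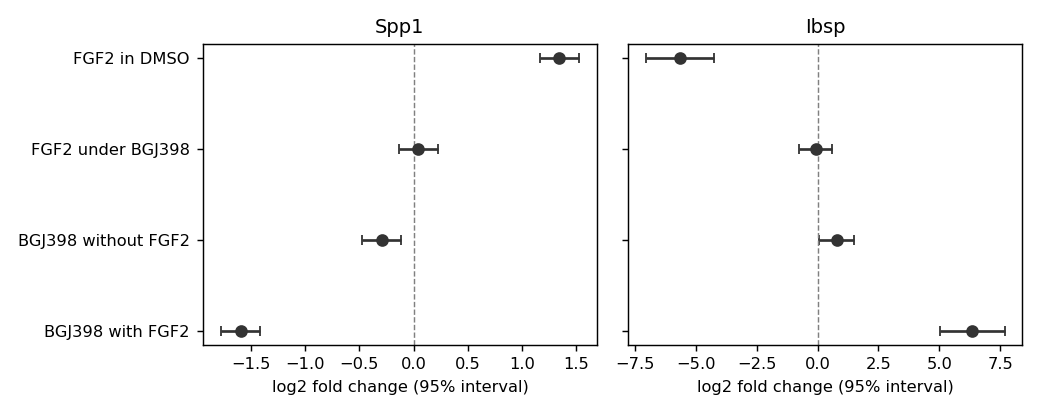
Log2 differences of Spp1 and Ibsp, with bars of the 95% interval, for FGF2 at each level of inhibitor and for the inhibitor at each level of FGF2. Spp1 and Ibsp lie on opposite sides of 0 in each comparison. For FGF2 in DMSO this was set by the choice of the pair, and the comparisons of BGJ398 with DMSO share its libraries. The bars of those comparisons are a description without a test. For FGF2 under BGJ398, the only comparison tested, the values are 0.044 and −0.082 and both intervals include 0.

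The annotation used holds 7 Spp1 transcripts and 1 Ibsp transcript, the latter of 2068 bases with 972 coding bases. The main one (ENSMUST00000031243), of 1410 bases in 7 exons, took 94.0 ± 0.68% of Spp1 TPM in DMSO, 93.8 ± 0.95% in DMSO+FGF2, 94.1 ± 0.77% in BGJ398 and 94.8 ± 0.62% in BGJ398+FGF2 (SD, n = 3 each). The share of this transcript moved between groups by about as much as it varied within them, while the gene's level varied 3-fold. A transcript (ENSMUST00000112748) that starts 3 bases downstream and is 1456 bases long, took 5.42% in DMSO, 5.80% in DMSO+FGF2, 5.77% in BGJ398 and 4.58% in BGJ398+FGF2. Both transcripts have the same 882 coding bases, so nearly all Spp1 RNA in every group was assigned to transcripts of 1 protein. A further transcript (ENSMUST00000112747) has these coding bases too but starts 1074 bases downstream of the first start, exactly at the second RefSeq start. Salmon assigned it 29.6, 28.4 and 2.77 reads in DMSO, 52.0, 40.5 and 53.9 in DMSO+FGF2, 0, 2.95 and 0 in BGJ398 and 22.6, 22.3 and 20.04 in BGJ398+FGF2. It was at most 0.347% of Spp1 TPM in any library. As a group BGJ398 held the fewest of its reads, although BGJ398 replicate 2 (2.95) lay above DMSO replicate 3 (2.77). These are estimates that divide reads among overlapping transcripts, the files give no uncertainty for them, and the group differences were not tested. Neither Spp1 nor Ibsp shared any 31-base sequence with another gene or overlapped one.

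**Figure D3:**
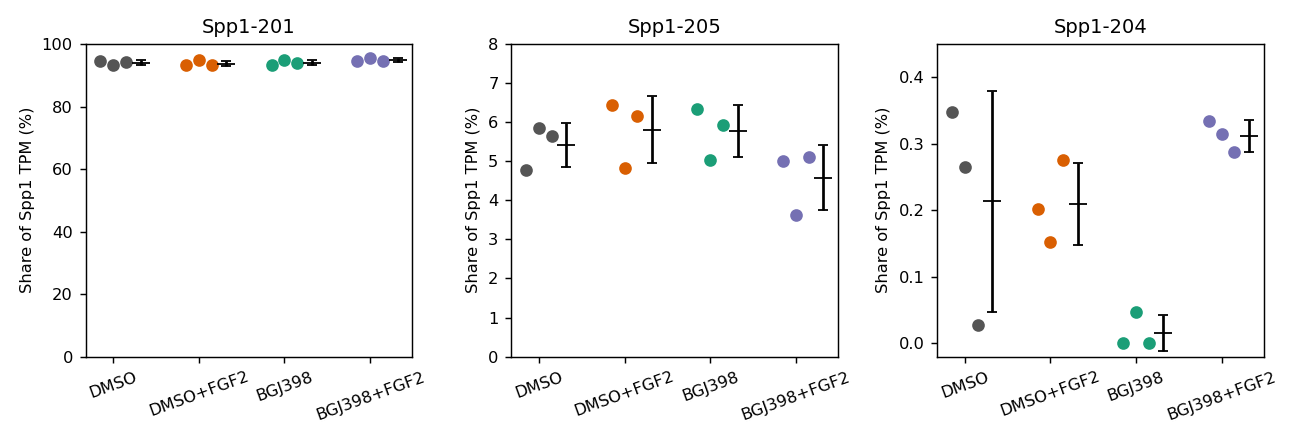
Share of Spp1 TPM in each of the 12 libraries, in percent, assigned to the main transcript, the one of 1456 bases and the one from the second RefSeq start. The main transcript holds 93.2% to 95.6% in all libraries, and the one of 1456 bases most of the remainder.

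Genes that act with the pair were read from lists of receptors, modifying enzymes, mineral formation, transcription factors, other SIBLING genes and chromosome neighbors, drawn up with earlier results of these data known. Of 72 listed genes 59 were tested, and for FGF2 in DMSO 18 rose and 11 fell, 49.2% against 13.4% of all tested genes, of which 7.57% rose and 5.82% fell (edgeR quasi-likelihood test, Benjamini-Hochberg adjusted p under 0.05). Leaving out 1 library gave 20 to 32 called genes of the lists. The share over all genes was 8.31% without DMSO replicate 2, 8.04% without DMSO replicate 3, 8.58% without DMSO+FGF2 replicate 2 and 20.7% without the 3 libraries that deviated together. The median log2 difference was −0.02 over the lists and 0.00 over all tested genes. For FGF2 under BGJ398, 0 of the 59 were called, 0 had an unadjusted p below 0.05, and limma-voom and DESeq2 called 0.

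The other SIBLING genes were barely detected. Dmp1, an acidic phosphoprotein of osteocytes, had 12 reads over the DMSO libraries, 6 over DMSO+FGF2, 3 over BGJ398 and 5 over BGJ398+FGF2, and Mepe and Dspp had 0 reads in all 12 libraries. None of them was tested, so Spp1 and Ibsp were the only members of the family with measurable differences. The 3 tested neighbors outside the family did not pass for FGF2 in DMSO. Their log2 differences were −0.08 ± 0.08 (SE) for Pkd2, a calcium channel gene next to Spp1, 0.19 ± 0.11 for Nudt9, an ADP-ribose pyrophosphatase, and 0.06 ± 0.07 for Hsd17b11, a steroid dehydrogenase. Pkd2 stood at 247 ± 1.15 CPM in DMSO against 234 ± 12.5 CPM with FGF2 (SD, n = 3 each), next to the 2.54-fold higher Spp1. With FGF2 present, Nudt9 was lower with BGJ398 by −0.38 ± 0.11 (SE, edgeR adjusted p = 0.0235), a call lost without DMSO+FGF2 replicate 2 or BGJ398+FGF2 replicate 1 or 3 (adjusted p up to 0.106) and with effective length offsets. The other neighbors did not pass there.

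Among 10 tested receptors of osteopontin or bone sialoprotein, 2 rose and 2 fell with FGF2 in DMSO, with a median log2 difference of −0.10. Cd44, the hyaluronan receptor that also binds osteopontin, fell from 156 ± 0.974 to 129 ± 5.96 CPM (SD, n = 3 each), by −0.28 ± 0.05 on the log2 scale (SE, edgeR adjusted p = 0.00242). Itga8, which pairs with integrin beta 1 as an osteopontin receptor, fell 2.74-fold from 2.25 ± 0.373 to 0.824 ± 0.302 CPM, by −1.45 ± 0.29 (SE, adjusted p = 0.00491). The common integrin chains that recognize the arginine-glycine-aspartate sequence did not pass: Itgav had a log2 difference of −0.12 ± 0.10, Itgb1 −0.06 ± 0.05, Itgb3 −0.08 ± 0.10 and Itga5 −0.04 ± 0.05 (SE). Itgb5, a partner of the alpha v chain, rose by 0.27 ± 0.07 (SE, adjusted p = 0.0210), a call lost without any 1 of the DMSO libraries or DMSO+FGF2 replicate 2 (adjusted p up to 0.0928). Itgb7, the partner of the alpha 4 chain, rose by 0.99 ± 0.30 (adjusted p = 0.0402), a call lost without any 1 DMSO library, BGJ398 replicate 3 or DMSO+FGF2 replicate 1 or 2 (adjusted p up to 0.156). Itga9, a receptor for thrombin-cleaved osteopontin, had a log2 difference of −1.25 ± 0.42 (SE, adjusted p = 0.0679), which passed in DESeq2 (adjusted p = 0.0435). An annotated gene on the opposite strand overlaps Itga9 and Itgav, and use of strand is not given in the sources used here. With FGF2 present, 4 receptors were higher and 3 lower with BGJ398, 70% of those tested against 22.2% of all tested genes (10.8% higher and 11.4% lower). They included Itga8, higher by 1.496 ± 0.30, Cd44, higher by 0.23 ± 0.05, and Itgb3, lower by −0.40 ± 0.11 (SE, edgeR adjusted p = 0.00298, 0.00621 and 0.0160). Of these, Itgb3 lost its call without DMSO+FGF2 replicate 1 or BGJ398+FGF2 replicate 3 (up to 0.0728), and Cd44 with effective length offsets. Itga9 and Itgb1 were also higher, and Itgb5 and Itgb7 lower. On leaving out 1 library, Itga9, Itgb5 and Itgb7 lost their calls in 3, 3 and 7 of 12 fits (adjusted p up to 0.0736, 0.113 and 0.148). Effective length offsets also removed the calls of Itga9, Itgb5 and Itgb7, and fitting only the groups compared removed those of Itgb1, Itgb5 and Itgb7.

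Of 10 tested enzymes that modify these proteins, 5 rose and 1 fell with FGF2 in DMSO, with a median log2 difference of 0.26. Fam20c, the secretory-pathway kinase that phosphorylates SIBLING proteins, had a log2 difference of 0.29 ± 0.09 (SE, edgeR adjusted p = 0.0555) and passed in DESeq2 and limma-voom (adjusted p = 0.0240 and 0.0471). Fam20a, the pseudokinase that activates Fam20c, rose from 42.5 ± 1.81 to 53.8 ± 2.75 CPM (SD, n = 3 each), by 0.34 ± 0.07 (SE, adjusted p = 0.00572). The gelatinases, which can cleave osteopontin, moved apart: Mmp2 rose from 755 ± 22.9 to 941 ± 69.7 CPM, by 0.32 ± 0.06 (SE, adjusted p = 0.00489), and Mmp9 fell by −0.70 ± 0.14 (adjusted p = 0.00340, or 0.0635 with effective length offsets). The transglutaminase genes Tgm2 and F13a1, whose enzymes cross-link osteopontin, rose by 1.02 ± 0.32 and 0.43 ± 0.12 (SE, adjusted p = 0.0488 and 0.0354). Bmp1, a procollagen and SIBLING-processing protease, rose by 0.17 ± 0.05 (SE, adjusted p = 0.0339). These 3 calls were fragile. Tgm2, at 0.860 CPM in DMSO, lost its call without 10 of the 12 libraries in turn, that is all except replicate 2 of DMSO+FGF2 and of BGJ398+FGF2 (adjusted p up to 0.180). F13a1 lost it without any 1 library of DMSO or DMSO+FGF2 (up to 0.119). Bmp1 lost it without any 1 DMSO library, BGJ398 replicate 2 or DMSO+FGF2 replicate 2 or 3 (up to 0.150). All 3 calls were also lost with effective length offsets, and those of Tgm2 and Bmp1 with library size only and no filter on low counts. An annotated gene on the opposite strand overlaps Tgm2. Phex, the endopeptidase that removes the acidic mineral-binding peptides of SIBLING proteins, had a log2 difference of −0.36 ± 0.43 and did not pass. In the presence of FGF2 no enzyme passed as higher with BGJ398 and 3 passed as lower, 30% of those tested. Over all tested genes 22.2% passed (10.8% higher and 11.4% lower). The enzyme genes were Fam20c, lower by −0.40 ± 0.09, Tgm2 by −1.69 ± 0.34 and F13a1 by −0.49 ± 0.13 (SE, edgeR adjusted p = 0.00789, 0.00328 and 0.0141). Without BGJ398+FGF2 replicate 1 the call of F13a1 was lost (0.0680), and with effective length offsets that of Fam20c.

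All 8 genes of mineral formation were tested, and 4 rose and 2 fell with FGF2 in DMSO, with a median log2 difference of 0.24. Alpl, the alkaline phosphatase that hydrolyzes pyrophosphate and dephosphorylates osteopontin, fell by −3.18 ± 0.13 (SE, edgeR adjusted p = 8.69e-09). Enpp1, which makes pyrophosphate, rose from 23.5 ± 2.01 to 48.2 ± 2.496 CPM (SD, n = 3 each), by 1.03 ± 0.08 (SE, adjusted p = 3.03e-06). Ank, through which pyrophosphate leaves the cell, rose from 58.8 ± 2.21 to 77.0 ± 2.15 CPM, by 0.39 ± 0.08 (adjusted p = 0.00347), and overlaps an annotated gene on the opposite strand. Mgp, the matrix Gla protein that inhibits mineral, rose from 449 ± 9.07 to 676 ± 34.8 CPM, by 0.59 ± 0.08 (adjusted p = 0.000160). The phosphate carrier gene Slc20a1 rose by 0.32 ± 0.06 (adjusted p = 0.00316). Enpp1, Ank, Mgp and Slc20a1 thus had the sign of Spp1, and Alpl that of Ibsp. Bglap, osteocalcin, fell by −1.41 ± 0.41 (adjusted p = 0.0371) and is uncertain. Other genes hold 62.9% of its 31-base sequences, and the call was lost with no filter on low counts (0.0598), with effective length offsets (0.0552) and without DMSO replicate 1 or 3, BGJ398 replicate 2, BGJ398+FGF2 replicate 1 or any 1 DMSO+FGF2 library (adjusted p up to 0.164). BGJ398 without FGF2 gave 1 call in all the lists, Alpl, which rose by 0.65 ± 0.10 (SE, adjusted p = 0.0165), where 0.327% of all tested genes passed (0.151% higher and 0.175% lower). The call was lost without any 1 DMSO library or BGJ398 replicate 2 or 3 (adjusted p up to 0.123) and with effective length offsets. The number of calls over all genes in that comparison, 41, ranged from 9 to 104 on leaving out 1 library and was 730 without the 3 libraries that deviated together, where 6 listed genes passed. With FGF2 present, Alpl was higher with BGJ398 by 3.71 ± 0.13, and Enpp1, Ank, Mgp and Slc20a1 were lower (SE, adjusted p = 1.89e-09 for Alpl and at most 0.0351 for the others). The call of Slc20a1 there was lost without DMSO replicate 2, DMSO+FGF2 replicate 1 or 3 or BGJ398+FGF2 replicate 1 or 3 (up to 0.142). It was also lost with the replicate block (adjusted p = 0.0572), library size only (0.0532), no filter on low counts (0.0569) and only the groups compared (0.0968).

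All 28 listed transcription factors known to act on bone genes or on the promoters of the pair were tested, and 7 rose and 6 fell with FGF2 in DMSO, with a median log2 difference of −0.07. The osteoblast factors that fell were Sp7 (osterix), from 21.1 ± 1.87 to 8.94 ± 1.12 CPM (SD, n = 3 each), by −1.24 ± 0.10 (SE, edgeR adjusted p = 4.06e-06), and the homeobox genes Dlx5 and Dlx6, by −1.28 ± 0.09 and −0.97 ± 0.12 (adjusted p = 8.17e-07 and 8.61e-05). Mef2c, a MADS-box factor of osteocytes, fell from 132 ± 2.51 to 69.5 ± 7.11 CPM, by −0.93 ± 0.10 (adjusted p = 2.55e-05). Vdr, the vitamin D receptor, which activates Spp1, fell by −0.30 ± 0.06 (adjusted p = 0.00249). Runx2, the runt factor that acts on both members of the pair, fell by −0.30 ± 0.09 (adjusted p = 0.0432). Its call was lost without any 1 DMSO library, BGJ398 replicate 2 or 3, DMSO+FGF2 replicate 1 or 2 or BGJ398+FGF2 replicate 1 (adjusted p up to 0.164). With effective length offsets its adjusted p was 0.345.

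Rising factors were mostly of the AP-1 family, whose dimers act on many FGF targets. Jun rose from 62.4 ± 1.86 to 92.7 ± 3.19 CPM (SD, n = 3 each), by 0.57 ± 0.07 (SE, edgeR adjusted p = 0.000163), Junb by 0.51 ± 0.10 (adjusted p = 0.00427), Jund by 0.57 ± 0.11 (adjusted p = 0.00471) and Fosl2 by 0.35 ± 0.07 (adjusted p = 0.00467). Fosl1 rose by 0.85 ± 0.13 (adjusted p = 0.000701, or 0.228 with effective length offsets) and is uncertain, since other genes hold 54.5% of its 31-base sequences. Fos and Fosb did not pass, at −0.14 ± 0.10 and −0.46 ± 0.26 (SE). Junb, Fosl1 and Runx2 each overlap an annotated gene on the opposite strand. Twist2, a repressor of osteoblast maturation, rose by 0.48 ± 0.13 (adjusted p = 0.0223), a call lost without DMSO replicate 1 or 2 or DMSO+FGF2 replicate 2 (up to 0.101). Hif1a, the hypoxia factor, rose by 0.21 ± 0.06 (adjusted p = 0.0343), a call lost without any 1 library of DMSO or DMSO+FGF2 (up to 0.137), with library size only (0.0796) and with effective length offsets (0.1125). The listed factors for the other letters found in the promoters did not pass. Log2 differences were −0.07 ± 0.07 for Ets1, −0.22 ± 0.11 for Creb1, and −0.08 ± 0.06 and −0.09 ± 0.09 for Nfya and Nfyb, subunits of the CCAAT-binding factor. The lists hold no other ETS gene and only some factors for the other letters, so these families were not examined as a whole. With FGF2 present, 7 factors were higher with BGJ398 and 6 lower, 46.4% against 22.2% of all tested genes (10.8% higher and 11.4% lower). The higher ones were Sp7 at 1.51 ± 0.10 (SE, adjusted p = 4.54e-07), Dlx5, Dlx6, Mef2c, Vdr, the homeobox gene Hoxa10 at 0.27 ± 0.06 (adjusted p = 0.00470) and, unlike the other called AP-1 genes, Fos at 0.44 ± 0.10 (adjusted p = 0.00709). For Fos the difference with BGJ398 was similar without FGF2, at 0.45 ± 0.10, where it did not pass (SE, edgeR adjusted p = 0.0906). With FGF2 present, Fosl1, Fosl2, Jun, Junb, Jund and Twist2 were lower with BGJ398. Fosl2 lost this call without 9 of the 12 libraries in turn, all except DMSO replicate 1, BGJ398 replicate 1 and BGJ398+FGF2 replicate 3, and Junb without DMSO+FGF2 replicate 2 or BGJ398+FGF2 replicate 1 or 3. Jund lost it without any 1 of the libraries named for Junb or DMSO+FGF2 replicate 3. The adjusted p reached 0.109, 0.120 and 0.139 in the order named. All 3 calls were lost with effective length offsets (0.171, 0.222 and 0.489), and that of Fosl2 also with library size only (0.0538), only the groups compared (0.113) and without the 3 libraries that deviated together (0.0911).

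**Figure D4:**
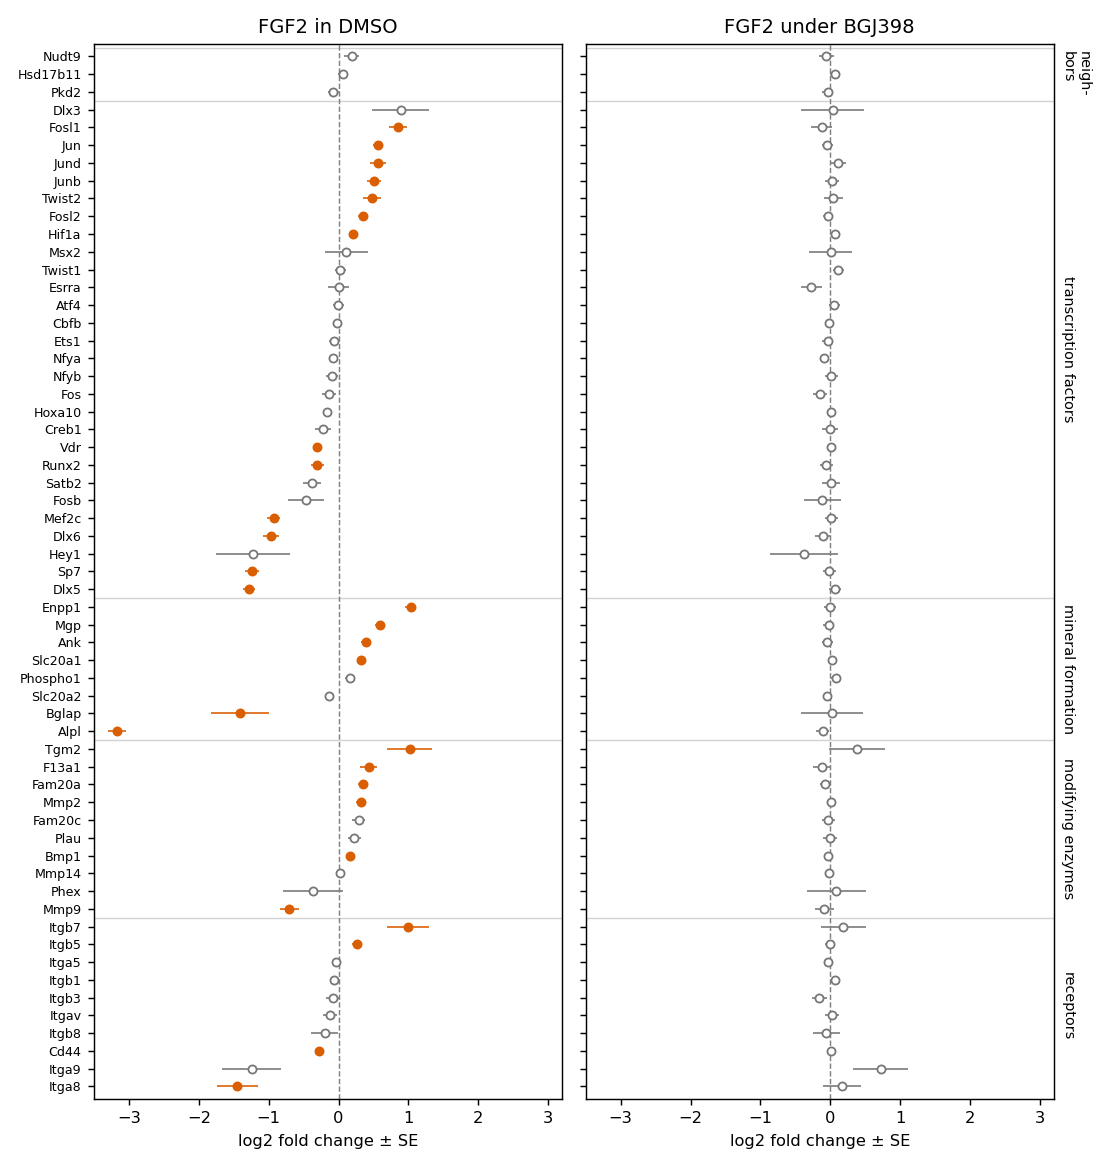
Log2 differences with bars of 1 SE for the 59 tested related genes, for FGF2 in DMSO (left) and FGF2 under BGJ398 (right), ordered within each list. Filled points, 29 on the left and 0 on the right, had an adjusted p under 0.05.

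Over all lists, 29 genes (12 higher, 17 lower with BGJ398) passed for BGJ398 with FGF2, 49.2% against 22.2% of all tested genes (10.8% higher and 11.4% lower). The FGF2 change differed between BGJ398 and DMSO for 14 listed genes (8 with a higher and 6 with a lower value under BGJ398), 23.7% against 4.24% of all tested genes (1.99% and 2.25%). That count was 9 without DMSO replicate 1 or 3, DMSO+FGF2 replicate 3 or BGJ398+FGF2 replicate 1.

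Genes whose levels followed those of the pair most closely were ranked by Pearson correlation of log2 CPM over the 12 libraries among the 10462 tested genes that averaged 5 CPM or more. These correlations describe libraries of 4 groups and carry no p-value. Closest to Spp1 was Hmga1, an architectural chromatin protein gene, with r = 0.996 and group means of 81.5 CPM in DMSO, 221 in DMSO+FGF2, 65.1 in BGJ398 and 63.2 in BGJ398+FGF2. Hmga1 is uncertain, since 62.1% of its 31-base sequences also occur in other genes and an annotated gene overlaps it on the opposite strand. Next came Smox, which encodes spermine oxidase (r = 0.989), Rhou (0.987), Klhdc8a (0.984) and Stac2 (0.983). Rhou, for example, had means of 59.6 CPM in DMSO, 108 in DMSO+FGF2, 53.8 in BGJ398 and 53.4 in BGJ398+FGF2. It was highest in DMSO+FGF2 as Spp1 was, which the ranking by likeness favors. Most opposite to Spp1 were the secreted neuron-derived neurotrophic factor gene Ndnf, the FGF receptor gene Fgfr2 and the matricellular gene Ccn3, each with r = −0.989. Fgfr2 averaged 118 CPM in DMSO, 67.6 in DMSO+FGF2, 138 in BGJ398 and 136 in BGJ398+FGF2. Its annotated span overlaps other genes on both strands.

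Closest to Ibsp were tenascin C, Tnc (r = 0.992), the fibrillar collagen gene Col27a1 (0.992), Alpl (0.991), the type III collagen gene Col3a1 (0.988) and Megf6 (0.985). Tnc averaged 297 CPM in DMSO, 112 in DMSO+FGF2, 390 in BGJ398 and 356 in BGJ398+FGF2, and Alpl 12.02, 1.32, 18.8 and 17.4 CPM in the same order. All 5 were lowest in DMSO+FGF2 and had higher means in both inhibitor groups than in DMSO, an order that their choice for likeness to Ibsp largely set.

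**Figure D5:**
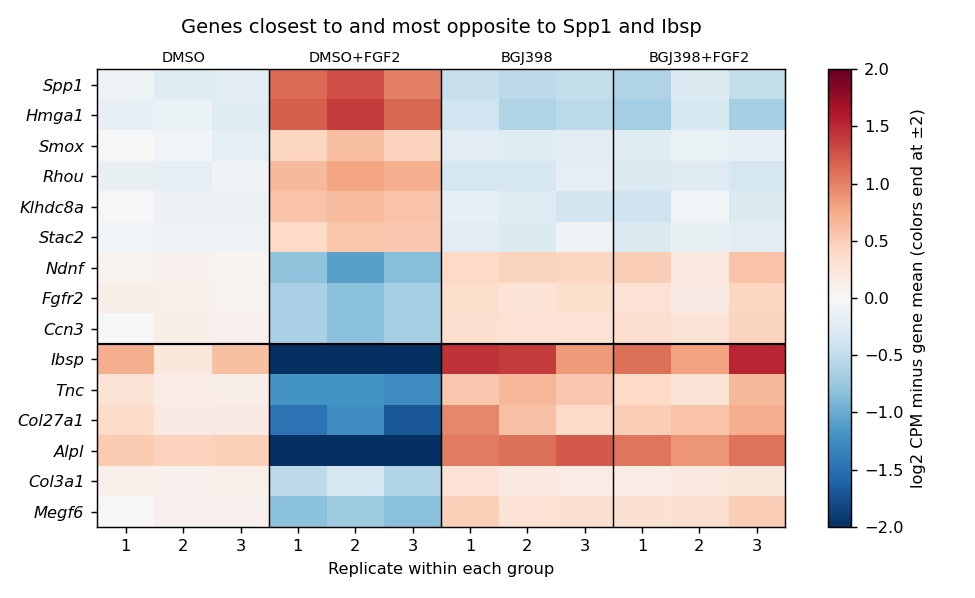
Log2 CPM relative to each gene's mean over the 12 libraries, for Spp1 with the genes most alike and most opposite to it and for Ibsp with the genes most alike. In the 3 DMSO+FGF2 libraries the genes most alike move the same way as the member, which their choice by correlation over these libraries largely set. The Ibsp set is spread more widely than the Spp1 set, with Ibsp at 1.44 and Col3a1 at 0.287 in BGJ398 replicate 1.

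Marker sums moved with the pair in some lists. The summed level of the 7 osteoblast markers, which include Spp1 and Ibsp, was 9669 to 10350 CPM in DMSO, 6474 to 7894 in DMSO+FGF2, 9717 to 11610 in BGJ398 and 9537 to 11330 in BGJ398+FGF2. Col1a1, the main bone collagen gene, carried this sum with 9485 ± 360 CPM in DMSO and 5912 ± 714 in DMSO+FGF2 (SD, n = 3 each). Hypertrophic chondrocytes also make both proteins. The sum of 5 listed chondrocyte markers, not all specific to hypertrophic cells, was 14.2 to 14.6 CPM in DMSO and 24.1 to 25.9 in DMSO+FGF2. In BGJ398 it was 13.5 to 14.4 CPM and in BGJ398+FGF2 11.5 to 17.4. The sum was carried by Sox9, the only one with a mean of at least 10 reads. Col10a1, the defining collagen of hypertrophic chondrocytes, had 20 reads over the DMSO libraries and 11 over DMSO+FGF2. Col2a1 had 37 and 18, Ihh 8 and 6, and Acan 1 and 0, so the listed markers other than Sox9 were not higher with FGF2. Macrophages and osteoclasts make much osteopontin, and their 10 markers summed to 68.4 to 70.5 CPM in DMSO, 58.3 to 69.1 in DMSO+FGF2, 65.4 to 69.2 in BGJ398 and 66.5 to 85.8 in BGJ398+FGF2. That sum was carried by Ctsk, and only Ctsk and Cd68 averaged at least 10 reads. Cd68, a lysosomal protein gene, stood at 1.53 ± 0.443 CPM in DMSO, 5.95 ± 0.804 in DMSO+FGF2, 2.23 ± 0.321 in BGJ398 and 2.42 ± 0.460 in BGJ398+FGF2 (SD, n = 3 each), highest in the same group as Spp1, while Adgre1 and Calcr had 0 reads in all libraries. The osteocyte sum, carried by Pdpn, was 25.8 to 29.5 CPM in DMSO and 38.6 to 40.1 in DMSO+FGF2. The part of these sums, and of Cd68, in the levels of Spp1 and Ibsp was not tested.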

How the data were processed

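RNA-seq of 12 Ocy454 libraries was used. Per the submitters' processing notes reads were quantified per transcript with Salmon against genome build GRCm39, and the sources used here give no Salmon version, trimming or strand setting. The deposited files hold, per their file headers, expected counts (estimated reads, not scaled), abundances as TPM, scaled by the authors' quantification to a fixed total per library, and effective lengths in bases for 116178 transcripts. Of these, 114656 matched GENCODE M21 (build GRCm38) by identifier, in 35214 genes. The other 1522 held 0.499% to 0.641% of reads and were left out. For each gene the expected counts were added up and then rounded.

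Depth was 18951710 to 27716975 reads per library. Mitochondrial genes took 1.70% to 2.11% of reads, and replicate pairs differed by 3.26 to 25.5 times counting noise. Differences were tested in R 4.3.3 by edgeR 4.0.16 after filterByExpr by group (minimum count 10) and TMM scaling. A single quasi-likelihood model held the 4 group means of all 12 libraries, and tests were 2-sided, with Benjamini-Hochberg adjustment over 12542 genes and a threshold of 0.05. The biological coefficient of variation was 8.49%, and an SE is the absolute log2 difference divided by the square root of F. Intervals of Ibsp count ratios are exact conditional ones and cover counting error only. Alternatives were RLE scaling, library size only, no filter on low counts, effective length offsets, a replicate block, limma-voom (limma 3.58.1), DESeq2 1.42.0, only the groups compared, leaving out each library, and, added after seeing the data, leaving out the 3 libraries that deviated together.

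The members and gene lists were chosen with earlier results of these data known. Named genes are the members, genes of the lists and, by likeness over libraries, the 5 most alike to each member and the 3 most opposite to Spp1. Shared 31-base sequences and overlaps were counted in GENCODE M21. Promoters are RefSeq sequences of build GRCm38.p6, and both members matched by symbol. Replicate numbers were checked as pairs by correlating the deviations of same-numbered libraries from their group means. Between DMSO+FGF2 and BGJ398+FGF2 all 3 correlations were over 0.1 (0.250, 0.377 and 0.190), so for BGJ398 with FGF2 the value with a replicate block is given where it changes a call. In no other pair of groups were all 3 over 0.1.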

Additional observations from a re-analysis of the deposited data

Results flagged for a closer look

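For 14 of the 59 tested related genes the FGF2 change under BGJ398 differed from that in DMSO, by the interaction term of edgeR's quasi-likelihood test at an adjusted p under 0.05. The values are log2 differences, obtained by subtracting the change with FGF2 in DMSO from the change with FGF2 in inhibited cells. The difference was above 0 for 8 genes. Among the receptors it was 0.30 for Cd44 and 1.62 for Itga8. Alpl had 3.07, and among the transcription factors Sp7 had 1.22, Dlx5 1.35, Dlx6 0.86, Mef2c 0.94 and Vdr 0.31. These 8 genes all had lower levels with FGF2 in DMSO. The difference was below 0 for 6 genes, all with higher levels with FGF2 in DMSO. It was −0.42 for the pseudokinase gene Fam20a, −1.03 for Enpp1, −0.43 for Ank and −0.61 for Mgp. It was −0.61 for Jun and −0.97 for Fosl1, whose sequence is largely shared with other genes. On leaving out 1 library, 9 of these genes kept an adjusted p under 0.05 in all 12 fits (Alpl, Enpp1, Mgp, Sp7, Dlx5, Dlx6, Fosl1, Jun and Mef2c). The calls of Cd44, Itga8, Fam20a, Ank and Vdr were lost in 8 to 10 of the 12 fits, with adjusted p up to 0.0966, 0.103, 0.101, 0.106 and 0.1105 in that order. With effective length offsets the calls of Cd44, Itga8, Fam20a, Ank and Fosl1 were lost. Those of Cd44 and Ank were lost with library size only, those of Cd44 and Vdr with no filter on low counts, and that of Vdr without the 3 libraries that deviated together.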

How the results depend on the processing

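The differences of Spp1 and Ibsp kept their sign in all alternatives in the 4 comparisons that use DMSO or DMSO+FGF2 libraries. For FGF2 under BGJ398 neither passed in any alternative, and the sign turned in some. Spp1 ranged from −0.047 (without BGJ398+FGF2 replicate 2) to 0.11 on leaving out 1 library and was −0.037 without the 3 libraries that deviated together. Ibsp ranged from −0.30 to 0.072, turned positive without BGJ398 replicate 1 (0.029) or BGJ398+FGF2 replicate 2 (0.072), and was 0.18 without the 3 libraries. The size of the Ibsp difference moved in the comparisons that include DMSO+FGF2, where it had 1 read. For FGF2 in DMSO it was −5.01 with limma-voom, −6.02 with DESeq2, −7.50 without the 3 libraries and −7.47 to −5.16 on leaving out 1 library. For BGJ398 with FGF2 these were 5.71, 6.72, 8.35 and 5.86 to 8.17, and for the interaction 4.93, 5.93, 7.68 and 5.07 to 7.39. Called related genes for BGJ398 without FGF2 (1 as reported) numbered 0 with effective length offsets, 3 with DESeq2, 6 without the 3 libraries and 0 to 1 on leaving out 1 library. For the interaction (14) they numbered 9 with effective length offsets and 9 to 21 on leaving out 1 library. The cause was not tested.

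Of the 29 related genes named as called for FGF2 in DMSO, 20 were called in all 12 fits without 1 library. Of the 29, 21 were called with effective length offsets, 26 with library size only, 26 with no filter, and all 29 with RLE scaling, limma-voom, DESeq2, only the groups compared and without the 3 libraries. Mmp14 (0.026, not called) ranged from −0.021 without DMSO+FGF2 replicate 2 to 0.054 without DMSO+FGF2 replicate 1, and was −0.021 without the 3 libraries. Calls over all genes moved by over 1.5 times in some fits. For FGF2 in DMSO (1680) there were 1018 to 2256 on leaving out 1 library and 2611 without the 3 libraries. For BGJ398 with FGF2 (2782) there were 1794 with only the groups compared and 1825 with effective length offsets. For BGJ398 without FGF2 (41) there were 11 with effective length offsets, 21 with the replicate block, 64 with only the groups compared, 83 with no filter and 148 with DESeq2. For the interaction (532) there were 350 with effective length offsets, 815 with DESeq2, 328 to 956 on leaving out 1 library and 1038 without the 3 libraries. For FGF2 under BGJ398 (0) there were 6 with no filter, 1 with only the groups compared, 4 without the 3 libraries and 0 or 1 on leaving out 1 library.

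The correlation of deviations of same-numbered libraries was −0.39 to 0.38, over 0.1 in 7 of 18 pairs, and in all 3 pairs only between DMSO+FGF2 and BGJ398+FGF2. With the replicate block Spp1 differed by 1.34 for FGF2 in DMSO and by 0.040 under BGJ398, and Ibsp by −5.66 and −0.092. The block called 24 related genes and 1503 of all genes for FGF2 in DMSO, and 29 and 2565 for BGJ398 with FGF2, where it changed no call of a related gene but that of Slc20a1 among those first called. For the interaction it called 11 related genes, without Cd44, Fam20a and Vdr. Depth limits Ibsp, which had 0 to 44 reads per library, and the low transcripts of Spp1.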
